A study of Mus musculus with 9 samples.

Results

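The genes described here encode 10 components of TGF-β signaling: the ligand *Tgfb1*, the receptors *Tgfbr1* and *Tgfbr2*, the SMAD genes *Smad2*, *Smad3*, *Smad4* and *Smad7*, and the nuclear corepressor genes *Skil*, *Ski* and *Tgif1*. They were chosen by gene symbol, as 10 of the 50559 genes listed in each count table, and all 10 were found and had enough reads to be tested. RNA-Seq was performed on CD45+CD11b+ myeloid cells sorted from the quadriceps of *mdx* mice, which lack dystrophin and model Duchenne muscular dystrophy. The 3 groups received vehicle, the mineralocorticoid receptor antagonist spironolactone, or the glucocorticoid prednisolone in the drinking water over 7 days, until collection at an age of 4.5 weeks; the vehicle was a sucralose-sweetened gel drink, MediDrop. Each group had 3 libraries, and each library held cells pooled from the quadriceps pairs of 3 mice. Every mouse, controls included, was *mdx*, so no healthy muscle entered the comparisons. Mice of both sexes were used. By the paper's numbers per group, vehicle and spironolactone had the same mix of sexes, while prednisolone had fewer males and more females. The sexes in each pool were not given, and the sort did not separate live from dead cells.

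TGF-β is secreted in a latent form, and once freed it binds the type II receptor, which recruits and phosphorylates the type I receptor. The active type I receptor phosphorylates SMAD2 and SMAD3, which join SMAD4, enter the nucleus and regulate genes. SMAD7 blocks the activated receptor, while SKI, SnoN (the product of *Skil*) and TGIF1 hold back SMAD-driven transcription. In injured and dystrophic muscle, macrophages are a known source of TGF-β1, which acts on fibro-adipogenic cells and promotes matrix deposition.

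Reads assigned to genes ranged from 31469815 to 32943512 per library, and 16618 genes passed the filter on low counts. The defining myeloid markers (*Ptprc*, *Itgam*, *Csf1r*, *Adgre1*, *Lyz2*, *Cd68* and *Fcgr1*) were all detected. Their summed level was 15732 to 18619 CPM (counts scaled to a common library size) in vehicle, 16140.5 to 17831 CPM in spironolactone and 17657 to 18899 CPM in prednisolone libraries. Of these 7, *Itgam*, the gene of the CD11b sort marker, was lower with spironolactone than with prednisolone (log2 fold change -0.43, edgeR adjusted *P* = 0.0353). None was called against vehicle. A summed list of 11 immediate early and dissociation genes was 10526 to 11284 CPM in vehicle, 8442 to 8582 CPM in spironolactone and 5632 to 8534 CPM in prednisolone libraries, so every treated library lay below every vehicle library. Neutrophil markers ranged from 614 to 2738 CPM among the vehicle libraries, with the highest sum in vehicle replicate 3, and were at 959.6 to 2007 CPM in spironolactone and 713 to 909.8 CPM in prednisolone libraries, so the sums of the drug groups did not overlap. Of the 6 markers, 4 were higher in every spironolactone library than in any prednisolone library, against 15.1 percent of all genes. *Csf3r* and *Mmp8* overlapped between the drugs, and edgeR called 0 of the 6. Some lists of other cell types were highest in the spironolactone libraries: erythroid markers summed to 186 to 305 CPM, against 70.2 to 134 CPM in vehicle and 37.1 to 79.7 CPM in prednisolone libraries, and lymphocyte markers to 6.35 to 10.1 CPM, against 2.61 to 5.26 CPM and 1.13 to 2.29 CPM. Skeletal muscle markers summed to 340.3 to 568 CPM with spironolactone and 289 to 454 CPM with prednisolone, both above the 182 to 278 CPM of vehicle. The part of these cells, neutrophils included, in the results was not tested, also for the genes called between the drugs (*Id3*, *Fn1* and *Ltbp4*). In bulk RNA of this kind, fewer cells of a type and less RNA per cell cannot be told apart.

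Of the 10 components, *Tgif1* alone passed the edgeR test in any comparison: it fell under prednisolone to 0.647 times its vehicle level. The level of *Tgif1* was also below vehicle in every spironolactone library, by a log2 fold change of -0.49 that missed the adjusted threshold of 0.05. The related corepressor gene *Skil* lay below vehicle in all 6 treated libraries without passing the test under either drug. The ligand, both receptors and *Smad2* had overlapping ranges in all 3 comparisons. In prednisolone against vehicle, 1 of 10 components was called, against 1.76 percent of all tested genes, or 0.758 percent for calls of lower level (edgeR quasi-likelihood test, Benjamini-Hochberg adjusted *P* under 0.05). In spironolactone against vehicle, 0 of 10 were called by edgeR, against 0.0181 percent of all genes; 3 had an unadjusted *P* under 0.05, against 9.29 percent of all genes, while DESeq2 called 2, against 1.76 percent of all genes by that tool, and limma-voom called 0 of 10 and 0 of all genes. In spironolactone against prednisolone, edgeR, DESeq2 and limma-voom each called 0 of 10, against 10.5 percent of all genes by DESeq2, 5.05 percent by limma-voom and 5.17 percent by edgeR (2.38 percent higher and 2.79 percent lower with spironolactone); 1 component had an unadjusted *P* under 0.05, against 22.5 percent of all genes. The prednisolone and spironolactone comparisons share their 3 vehicle libraries and are not independent.

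The median log2 fold change of the 10 components was -0.02 under prednisolone, -0.13 under spironolactone, and -0.15 for spironolactone against prednisolone. Over all tested genes the corresponding medians were -0.01, 9.04e-05 and 0.03. Under prednisolone 4 of the 10 had a positive and 6 a negative log2 fold change, and under spironolactone 1 was positive and 9 negative. Over all tested genes, 7950 were positive and 8668 negative under prednisolone, and 8311 and 8307 under spironolactone. Among the 9, *Tgfbr1* (-0.04) and *Tgfbr2* (-0.0009) lay close to 0 and changed sign in some other fits. The libraries of the groups did not overlap for 3 components under prednisolone (*Smad4* higher, *Skil* and *Tgif1* lower), against 19.7 percent of all genes, of which 10.4 percent were higher and 9.27 percent lower. Under spironolactone they did not overlap for 3 components (*Smad3*, *Skil* and *Tgif1*), all lower, against 6.5 percent of all genes lower and 6.99 percent higher, or 13.5 percent together. Between the drugs this held for 2 components (*Smad4* and *Ski*), both lower with spironolactone, against 30.3 percent of all genes, of which 15.2 percent were lower and 15.1 percent higher.

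**Figure D1:**
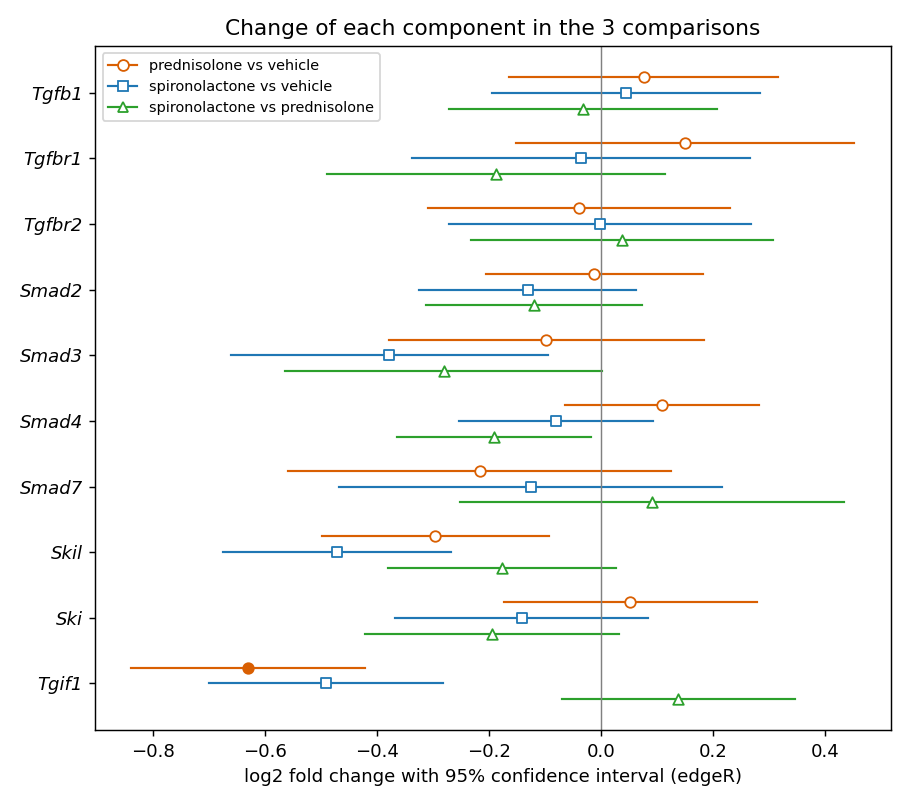
Log2 fold change (x axis) of each of the 10 components (y axis) in the 3 comparisons, with 95% confidence intervals from edgeR; a filled marker has an adjusted *P* under 0.05. The single filled marker is *Tgif1* under prednisolone, at -0.63.

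Levels of different genes were compared as TPM, a scaled level that divides the counts by the summed exon length of the gene. In vehicle cells *Tgfb1* was the most abundant component at 602 ± 84.5 TPM (mean ± SD, n = 3), above 98.5 percent of genes by its mean over all 9 libraries. *Ski* followed at 185 ± 36.5 TPM, then *Tgif1* at 141 ± 8.11 TPM and *Tgfbr1* at 120.3 ± 26.5 TPM. The ranges of *Tgif1* and *Tgfbr1* overlapped, so their order was not resolved. *Tgfbr2* was at 78.2 ± 17.6 TPM, *Skil* at 60.2 ± 4.56 TPM and *Smad4* at 39.7 ± 4.07 TPM. *Smad3* (25.6 ± 1.89 TPM) and *Smad2* (22.8 ± 2.29 TPM) had overlapping ranges, although *Smad3* was the higher in each vehicle library. *Smad7* was the least abundant at 12.9 ± 2.28 TPM, above 50.9 percent of genes over the 9 libraries. The remaining neighbors in this order had ranges that did not overlap. The order also depends on the exon lengths used, whose error these ranges do not measure. Before division by length, *Smad2* was above *Smad3* in vehicle, at means of 57.9 and 33.6 CPM. Even *Smad7* was read at depth, with 331 to 497 counts per library, while *Tgfb1* had 19871 to 26352.

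**Figure D2:**
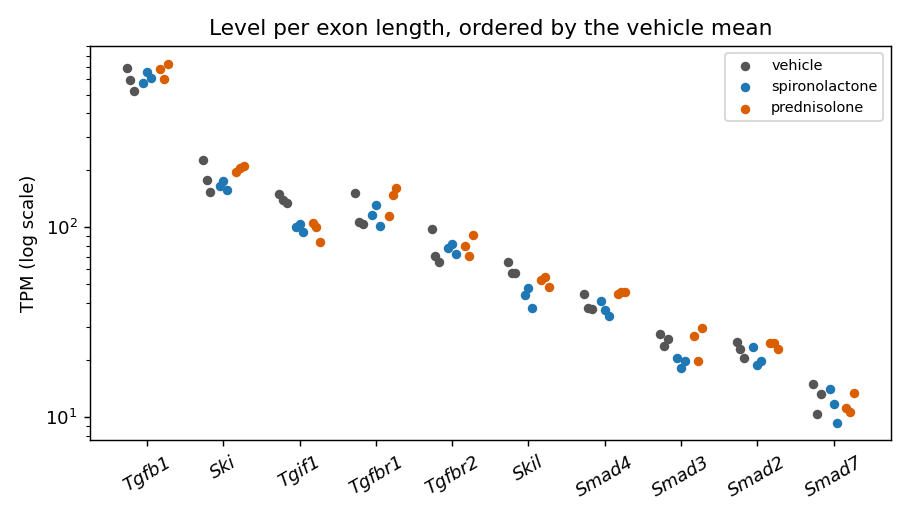
Level of the 10 components in TPM (log axis), ordered by level, with 1 point per library in the 3 groups. *Tgfb1* lies at the top, near 602 TPM in vehicle, and *Smad7* at the bottom, near 12.9 TPM.

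*Tgfb1* (ENSMUSG00000002603, chr7:25386390-25404506 on the + strand, GRCm39) encodes the ligand TGF-β1. Its level was 748, 703 and 619 CPM in the vehicle libraries, 635, 774 and 726 CPM in the spironolactone libraries, and 756, 645 and 782 CPM in the prednisolone libraries. The groups overlapped throughout, and the lowest and highest values came from vehicle and prednisolone. The log2 fold change was 0.08 under prednisolone (95% confidence interval -0.16 to 0.32, edgeR adjusted *P* = 0.823) and 0.04 under spironolactone (-0.19 to 0.28, adjusted *P* = 0.951). Between the drugs it was -0.03 (-0.27 to 0.21, adjusted *P* = 0.908). The 2 other ligand genes, named here after their values were seen, were scarce: *Tgfb3* was at 3.28 TPM and *Tgfb2* at 0.44 TPM in vehicle cells.

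*Tgfbr1* (ENSMUSG00000007613, chr4:47353134-47414931, + strand) encodes the type I receptor, the kinase that phosphorylates SMAD2 and SMAD3. It was at 214, 163 and 161 CPM in vehicle, 168, 199 and 157 CPM in spironolactone and 166, 205 and 227 CPM in prednisolone libraries. The prednisolone values reached highest, but the first vehicle library lay above 2 of them. The log2 fold change was 0.15 under prednisolone (-0.15 to 0.45, edgeR adjusted *P* = 0.69) and -0.04 under spironolactone (-0.34 to 0.27, adjusted *P* = 0.968). *Tgfbr2* (ENSMUSG00000032440, chr9:115913361-116004800, - strand), the type II receptor that binds the ligand, was at 185, 144 and 135 CPM in vehicle, 148, 165 and 150.3 CPM in spironolactone and 152, 129.5 and 170.0 CPM in prednisolone libraries. All groups overlapped, with the vehicle libraries spanning most of the range. The estimates were close to 0, at -0.04 under prednisolone (-0.31 to 0.23, adjusted *P* = 0.931) and less than 0.01 in size under spironolactone (-0.27 to 0.27, adjusted *P* = 0.999). For spironolactone against prednisolone, *Tgfbr1* had a log2 fold change of -0.19 (adjusted *P* = 0.47) and *Tgfbr2* of 0.04 (adjusted *P* = 0.904).

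**Figure D3:**
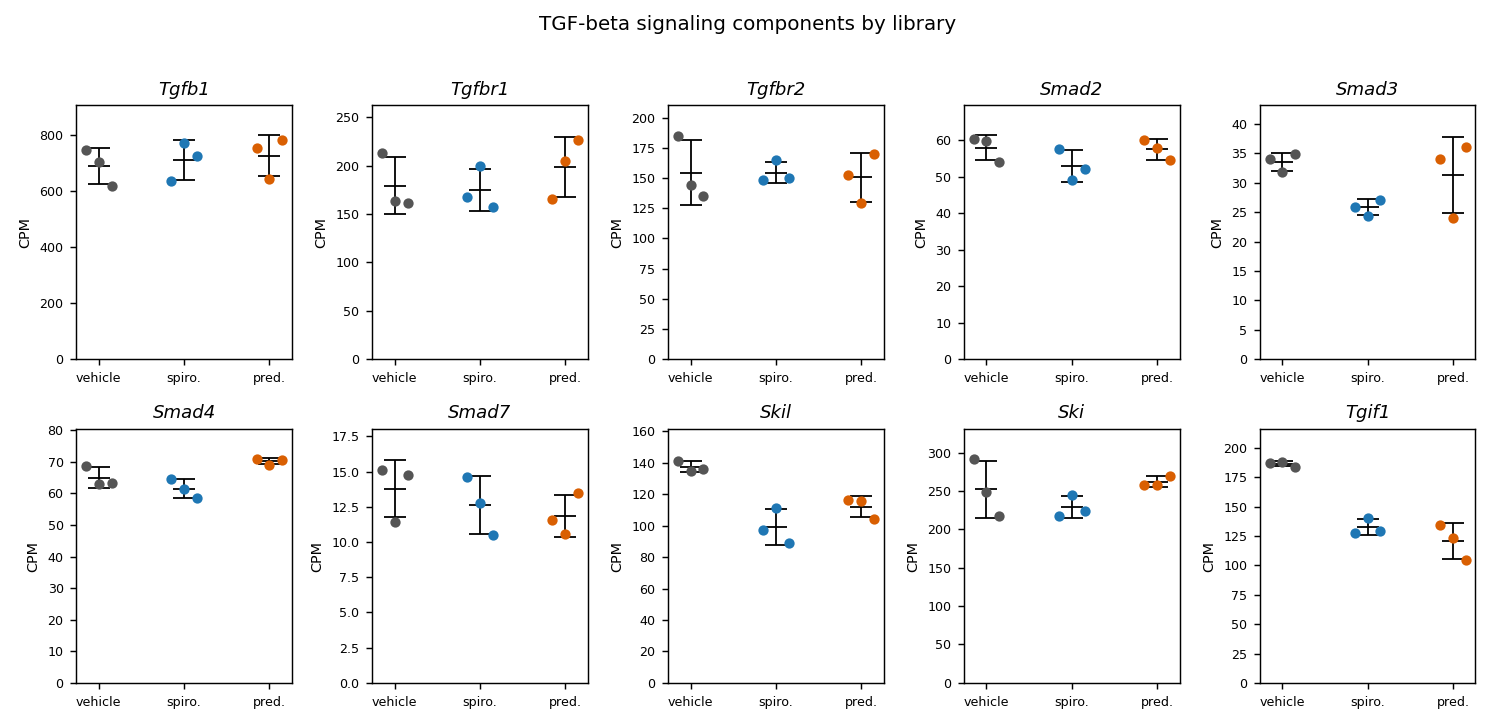
Level in CPM of each component in the 9 libraries, 1 panel per gene with its own linear axis from 0, with 1 point per library and bars for the group mean ± SD (n = 3). The treated libraries lie below every vehicle library for *Tgif1* and *Skil*, while the points of *Tgfb1*, *Tgfbr1*, *Tgfbr2* and *Smad2* intermix.

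*Smad2* (ENSMUSG00000024563, chromosome 18) and *Smad3* (ENSMUSG00000032402, chr9:63554049-63665476, - strand) encode the SMADs that the receptor phosphorylates. *Smad2* was at 60.2, 59.7 and 53.9 CPM in vehicle, 57.5, 49.1 and 52.2 CPM in spironolactone and 60.2, 57.8 and 54.6 CPM in prednisolone libraries. The groups overlapped, although 2 spironolactone libraries lay below all vehicle and prednisolone libraries. Its log2 fold change was -0.01 under prednisolone (-0.20 to 0.18, edgeR adjusted *P* = 0.973), -0.13 under spironolactone (-0.32 to 0.06, adjusted *P* = 0.712) and -0.12 between the drugs (adjusted *P* = 0.473).

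*Smad3* was at 34, 31.8 and 34.9 CPM in vehicle, 26, 24.4 and 27.1 CPM in spironolactone and 34, 24 and 36.1 CPM in prednisolone libraries. The spironolactone libraries all lay below the vehicle libraries, whereas prednisolone spread across both. The log2 fold change of -0.38 ± 0.13 (SE) under spironolactone had an unadjusted *P* of 0.0125 but did not pass the edgeR test after adjustment (adjusted *P* = 0.356, and 0.0968 to 0.39 across the 7 other settings that kept all libraries of the groups compared). Under prednisolone it was -0.10 (adjusted *P* = 0.805), and between the drugs -0.28 (-0.56 to 0.00, adjusted *P* = 0.226). The second prednisolone library, at 24 CPM, accounted for the wide spread of that group (SD 6.47 CPM, against 1.59 CPM in vehicle and 1.35 CPM in spironolactone). The ratio of *Smad2* to *Smad3* by TPM was 0.796 to 0.966 in vehicle, 0.991 to 1.14 in spironolactone and 0.777 to 1.24 in prednisolone libraries.

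*Smad4* (ENSMUSG00000024515, chromosome 18) encodes the common partner of the phosphorylated SMADs. It was at 68.8, 63 and 63.2 CPM in vehicle, 64.5, 61.5 and 58.5 CPM in spironolactone and 70.8, 69.1 and 70.5 CPM in prednisolone libraries. The prednisolone libraries were tightly grouped above all others. *Smad4* varied least of the 10 components, with a coefficient of variation of 6.73 percent over the 9 libraries. Its log2 fold change was 0.11 ± 0.08 under prednisolone (edgeR adjusted *P* = 0.597) and -0.08 ± 0.08 under spironolactone (adjusted *P* = 0.834). For spironolactone against prednisolone it was -0.19 ± 0.08, with an unadjusted *P* of 0.0336 and an adjusted *P* of 0.179.

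*Smad7* (ENSMUSG00000025880, chromosome 18) encodes the inhibitory SMAD, itself a target of the pathway in many cells. It was at 15.1, 11.4 and 14.8 CPM in vehicle, 14.6, 12.8 and 10.5 CPM in spironolactone and 11.5, 10.6 and 13.5 CPM in prednisolone libraries. The groups overlapped, and each of them held at least 1 library under 12 CPM. The log2 fold change was -0.22 under prednisolone (-0.56 to 0.13, edgeR adjusted *P* = 0.597), -0.12 under spironolactone (-0.47 to 0.22, adjusted *P* = 0.877) and 0.09 between the drugs (adjusted *P* = 0.794).

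*Skil* (ENSMUSG00000027660, chr3:31148816-31176740, + strand) encodes SnoN, a corepressor of SMAD complexes. It was at 141, 135 and 136 CPM in vehicle, 97, 112 and 89 CPM in spironolactone and 116, 116 and 104 CPM in prednisolone libraries. Every treated library lay below every vehicle library, while the drugs overlapped each other. Under spironolactone the log2 fold change was -0.47 ± 0.09 (-0.67 to -0.27; edgeR unadjusted *P* = 0.000216, adjusted *P* = 0.106), and under prednisolone -0.30 ± 0.09 (-0.50 to -0.09; unadjusted *P* = 0.00764, adjusted *P* = 0.149). The spironolactone value passed the threshold with DESeq2 (adjusted *P* = 0.00136), with no filter on low counts (0.00228) and without spironolactone replicate 2 (0.0465), and was furthest from it without spironolactone replicate 3 (0.378). Over all genes under spironolactone, DESeq2 called 293 and the fit with no filter 528, against 3 in the main fit. The prednisolone value stayed above the threshold in every setting (0.0792 to 0.415). Between the drugs the log2 fold change was -0.18 (-0.38 to 0.03, adjusted *P* = 0.294).

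*Ski* (ENSMUSG00000029050, chr4:155238532-155307543, - strand) encodes the founding member of the corepressor family to which SnoN belongs. It was at 291, 249 and 217 CPM in vehicle, 218, 245 and 223 CPM in spironolactone and 257, 258 and 270.1 CPM in prednisolone libraries. The vehicle libraries spanned the whole range, and the spironolactone libraries all lay below the prednisolone libraries. The log2 fold change was 0.05 under prednisolone (-0.17 to 0.28, edgeR adjusted *P* = 0.874), -0.14 under spironolactone (-0.37 to 0.09, adjusted *P* = 0.738) and -0.19 between the drugs (-0.42 to 0.03, adjusted *P* = 0.298). The ratio of *Ski* to *Skil* by TPM, chosen after its values were seen, was 3.44, 3.08 and 2.66 in vehicle, 3.75, 3.67 and 4.19 in spironolactone and 3.70, 3.73 and 4.31 in prednisolone libraries. It was therefore higher in each treated library than in any vehicle library, a description with no test. The ratios of *Tgfbr1* to *Tgfbr2* and of *Smad7* to *Smad3*, also taken, overlapped between all groups.

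*Tgif1* (ENSMUSG00000047407, chr17:71151192-71160541 on the - strand, GRCm39) encodes a homeodomain corepressor that binds SMAD complexes and also binds DNA directly. RefSeq start sites on an earlier build, GRCm38.p6, gave 5 promoter windows for the gene, each running from 250 bases before a start to 50 after it. The first 2 of them, with sequence from RefSeq, are shown because *Tgif1* is the component whose level changed; capitals mark the SMAD-binding motif CAGAC and the TGIF1 core motif TGTCA, on either strand (GTCTG and TGACA on the other). No marked motif overlaps another in these windows.
Tgif1 window, chr17:70853483-70853782, - strand: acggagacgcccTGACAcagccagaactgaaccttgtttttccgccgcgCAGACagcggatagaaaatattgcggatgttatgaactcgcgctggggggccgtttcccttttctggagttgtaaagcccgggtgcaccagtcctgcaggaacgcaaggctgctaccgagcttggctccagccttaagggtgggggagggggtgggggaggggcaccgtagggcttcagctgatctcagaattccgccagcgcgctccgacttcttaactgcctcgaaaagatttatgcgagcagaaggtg
Tgif1 window, chr17:70851685-70851984, - strand: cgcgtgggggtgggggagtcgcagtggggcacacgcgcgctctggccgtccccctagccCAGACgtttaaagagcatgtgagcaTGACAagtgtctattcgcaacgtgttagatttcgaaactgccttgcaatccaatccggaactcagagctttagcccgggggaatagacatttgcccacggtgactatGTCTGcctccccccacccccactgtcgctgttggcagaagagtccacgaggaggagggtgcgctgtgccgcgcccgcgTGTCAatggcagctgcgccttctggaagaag
The first window held CAGAC at -201 and TGTCA at -238 from the start, and the second held CAGAC at -191 and -59 and TGTCA at -166 and 19. Across the 5 *Tgif1* windows CAGAC was present in 3 and TGTCA in 4. Both motifs are common by their length: CAGAC was found in 49.6 percent and TGTCA in 45.4 percent of 32851 mouse windows of the same length. In the 11 windows found for 6 of the 10 components (*Tgfb1*, *Tgfbr1*, *Tgfbr2*, *Smad3*, *Ski* and *Tgif1*), each of these motifs was present in 5. The palindromic SMAD site GTCTAGAC, the AP-1 site TGANTCA, the cAMP response element TGACGTCA, the E-box CACGTG and the palindromic glucocorticoid receptor element were in 0 of the 11 windows, against 0.213, 7.81, 1.79, 7.15 and 0.00913 percent of all windows. These matches describe the letters only.

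The level of *Tgif1* was 188, 188 and 184 CPM in vehicle, 128, 141 and 129.7 CPM in spironolactone and 134, 123 and 104 CPM in prednisolone libraries. All 6 treated libraries lay below all vehicle libraries, and the vehicle libraries were nearly identical (SD 2.11 CPM). *Tgif1* fell by 0.63 ± 0.10 on the log2 scale under prednisolone (95% confidence interval -0.84 to -0.42, edgeR adjusted *P* = 0.00577). This call held under all 7 other settings tried (adjusted *P* 6.14e-07 to 0.0196) and without each of the 9 libraries in turn (0.00345 to 0.0399). Under spironolactone the log2 fold change was -0.49 ± 0.10 (-0.70 to -0.28), with an unadjusted *P* of 0.000185 and an adjusted *P* of 0.106. That value passed the threshold with DESeq2 (adjusted *P* = 0.000847) and with no filter on low counts (0.00121), and ranged up to 0.354 without spironolactone replicate 3. Spironolactone and prednisolone libraries overlapped, with a log2 fold change of 0.14 (-0.07 to 0.35, adjusted *P* = 0.431), so a difference between the drugs was not shown, nor was equality. *Tgif1* had the largest coefficient of variation of the 10 components, 21.5 percent over the 9 libraries. The summed immediate early and dissociation list was also lower in all treated libraries. Of its 11 genes, edgeR called 6 lower under prednisolone, against 0.758 percent of all genes; under spironolactone it called 0, with 9 estimates negative (6 at an unadjusted *P* under 0.05, against 9.29 percent of all genes in either direction) and 2 positive (*Hspa1a* and *Hspa1b*). The part of this list in the *Tgif1* and *Skil* values was not tested. All 6 resident-like macrophage markers had positive estimates under prednisolone, with 0 called. For 3 of them (*Cd163*, *Lyve1* and *Timd4*) every prednisolone library lay above every vehicle library, against 10.4 percent of all genes. The sums of this list overlapped. The part of these cells in the prednisolone values, that of *Tgif1* included, was not tested.

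Pearson correlations of log2 CPM over the 9 libraries, which contain the group differences, are given as a description. *Tgif1* and *Skil* had r = 0.80, and *Tgfb1* and *Tgfbr2* had r = 0.78, whereas *Tgif1* and *Ski* had r = 0.01. Among all tested genes, the levels most like *Tgif1* were those of *Ifrd1* (r = 0.99), *Sde2* (r = 0.98) and *Ccrl2* (r = 0.98). For *Skil* they were *Fem1c* (r = 0.96), *Gm39701* (r = 0.95) and *Rffl* (r = 0.95), and for *Smad3* they were *Ttc7* (r = 0.94), *Ikzf1* (r = 0.93) and *Gm5643* (r = 0.91).

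Some annotated genes overlap the components. Annotated genes on the opposite strand overlap *Tgfbr1* (*Gm32435*, *Gm68266*), *Tgfbr2* (*Gm31292*, *Gm4668*, *Gm68731*), *Smad4* (*Gm32548*, *Gm50126*), *Skil* (*Gm65753*) and *Tgif1* (*Gm56904*), and *Gm56903* overlaps *Tgif1* on its own strand. Whether reads were counted by strand is not given in the sources used here. It is therefore not known whether the levels of these components include reads of the overlapping genes.

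The machinery around these components was covered by 46 further genes, of which 44 could be tested; *Itgb6* and *Smad9* had too few reads. edgeR called 0 of the 44 under prednisolone and 0 under spironolactone, with 7 at an unadjusted *P* under 0.05 in each, against 14.2 percent of all genes under prednisolone and 9.29 percent under spironolactone; DESeq2 called 1 and 3, against 4.44 and 1.76 percent of all genes by that tool, and limma-voom 1 and 0, against 1.68 and 0 percent. Between the drugs edgeR called 1, *Ltbp4*, against 5.17 percent of all genes, and DESeq2 called 3, against 10.5 percent. Their median log2 fold changes were 0.03 under prednisolone, -0.05 under spironolactone and -0.08 between the drugs. By role, the ligand and latency genes (14 tested) had 3 at an unadjusted *P* under 0.05 under each drug, the receptors and co-receptors (5 tested) had 2 under each drug, and the receptor regulators such as the SMURF ubiquitin ligases (12 tested) had 2 under prednisolone and 0 under spironolactone. The other SMADs and nuclear partners (9 tested) had 0 under prednisolone and 1 under spironolactone, as did the SMAD-independent TAK1 arm (4 tested).

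**Figure D4:**
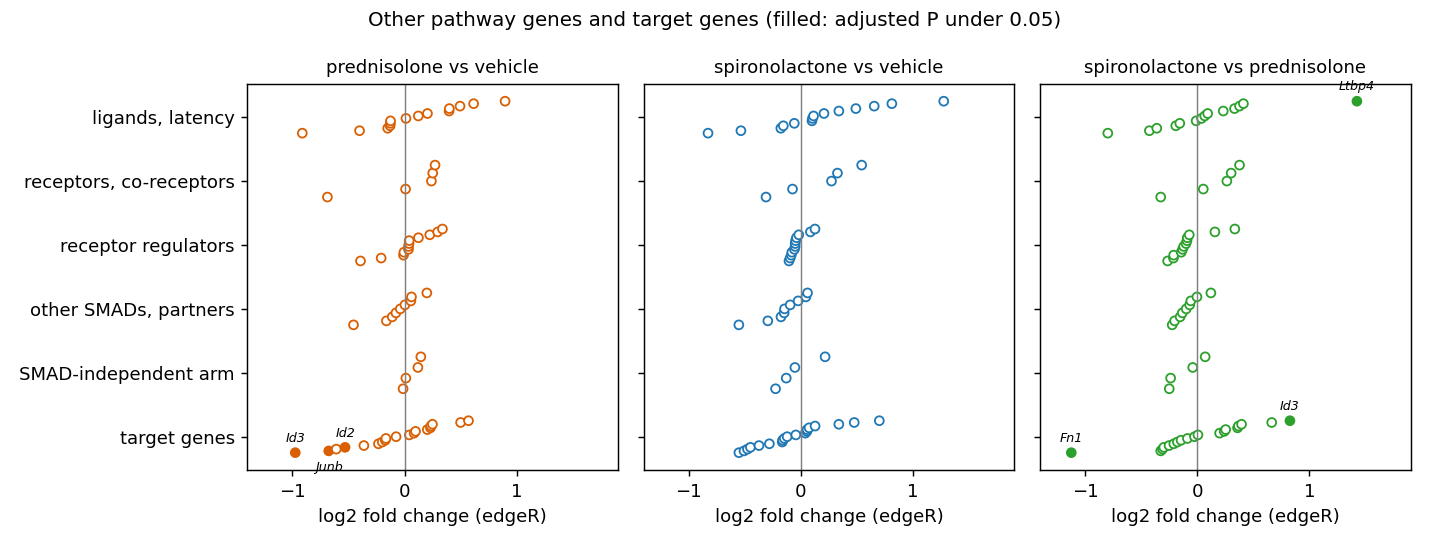
Log2 fold change (x axis) of the further pathway genes by role and of the target genes (y axis), 1 panel per comparison and 1 point per gene; filled points have an adjusted *P* under 0.05. The filled points are *Id3*, *Junb* and *Id2* under prednisolone, and *Ltbp4*, *Fn1* and *Id3* between the drugs.

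*Thbs1* encodes thrombospondin-1, which can free TGF-β from its latent complex. It was at 2210.3, 1995 and 2271 CPM in vehicle, 1263, 1268 and 1117 CPM in spironolactone and 1993, 1489 and 1422 CPM in prednisolone libraries. Every spironolactone library lay below every vehicle and prednisolone library. The log2 fold change under spironolactone was -0.83 ± 0.13 (edgeR adjusted *P* = 0.0542), just short of the threshold, and it passed under 5 of the 7 other settings (adjusted *P* 2.11e-10 to 0.0609). The lowest of these came with no filter on low counts, a setting that called 528 of all genes, against 3 in the main fit. The log2 fold change under spironolactone passed in 4 of the 9 fits that left out 1 library, and reached 0.212 without spironolactone replicate 3. Under prednisolone it was -0.40 ± 0.13 (adjusted *P* = 0.141), with every prednisolone library below every vehicle library, the highest of them by a small margin; it passed with no filter on low counts (0.0245) and without prednisolone replicate 1 (0.0338), in 1 of 7 other settings and 1 of 9 fits that left out 1 library (up to 0.449, without prednisolone replicate 2). Between the drugs it was -0.43 ± 0.13 (adjusted *P* = 0.0677), and it passed in 5 of the 7 other settings and 1 of the 9 fits that left out 1 library (0.0029 to 0.256 over all of these).

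*Ltbp4*, which encodes a latent TGF-β binding protein of the extracellular matrix, was at 13.4, 22.1 and 17.9 CPM in vehicle, 52.6, 34.8 and 41.6 CPM in spironolactone and 20.1, 14.8 and 13.2 CPM in prednisolone libraries. The spironolactone libraries were apart from all others. *Ltbp4* was higher with spironolactone than with prednisolone by a log2 fold change of 1.42 ± 0.21 (edgeR adjusted *P* = 0.00551); against vehicle it was 1.27 ± 0.21 (adjusted *P* = 0.0977), which passed with DESeq2 (6.27e-06), with no filter on low counts (2.04e-19) and without spironolactone replicate 2 (0.036); it missed the threshold in the 5 other settings (up to 0.16) and without any other library (up to 0.31, without spironolactone replicate 3). Summed endothelial markers were also highest with spironolactone, at 62.2 to 99.7 CPM in vehicle, 126 to 199 CPM in spironolactone and 84.1 to 111 CPM in prednisolone libraries, with all 6 markers detected. Of the 6, edgeR called 2 (*Pecam1* and *Cdh5*) higher with spironolactone than with prednisolone, against 2.38 percent of all genes. *Kdr* overlapped in all comparisons. *Flt1* lay above vehicle in every library of both drugs (log2 fold change 0.66 under prednisolone and 0.67 under spironolactone, neither called). Summed fibroblast markers, also all 6 detected, were at 387 to 570.0 CPM in vehicle, 527 to 796 CPM in spironolactone and 488 to 544 CPM in prednisolone libraries. The part of these cells in the *Ltbp4* result was not tested. *Bambi*, a decoy receptor that lacks the kinase domain, was at 17.1, 19.5 and 22.5 CPM in vehicle, 15.1, 17.2 and 15.3 CPM in spironolactone and 14.3, 13.4 and 9.02 CPM in prednisolone libraries. Its log2 fold change under prednisolone was -0.69 ± 0.16 (adjusted *P* = 0.0502, and 0.000313 to 0.0921 across the 7 other settings, 3 of which passed); it passed in 1 of the 9 fits that left out 1 library (adjusted *P* 0.0159 to 0.171).

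Genes known as transcriptional targets of the pathway in other cells formed a list of 20, of which 19 were tested; *Cdkn2b* had too few reads. Under prednisolone edgeR called 3 of the 19, all lower (*Id3*, *Id2* and *Junb*), against 1.76 percent of all genes called and 0.758 percent called lower. Under spironolactone edgeR called 0, with 6 at an unadjusted *P* under 0.05, against 9.29 percent of all genes; DESeq2 called 2, against 1.76 percent of all genes by that tool, and limma-voom 0. Between the drugs edgeR called 2, *Fn1* lower and *Id3* higher with spironolactone, against 5.17 percent of all genes. The list's median log2 fold changes were -0.08 under prednisolone, -0.12 under spironolactone and -0.02 between the drugs.

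*Id3* and *Id2* encode inhibitors of basic helix-loop-helix transcription factors and are also targets of BMP signaling. *Id3* was at 13.3, 15.2 and 13.8 CPM in vehicle, 13.8, 12 and 12.3 CPM in spironolactone and 9.29, 6.72 and 5.52 CPM in prednisolone libraries. The prednisolone libraries lay below all others. *Id3* fell by 0.97 ± 0.17 on the log2 scale under prednisolone (edgeR adjusted *P* = 0.0123) and was 0.83 ± 0.17 higher with spironolactone than with prednisolone (adjusted *P* = 0.0165). *Id2* was at 141, 138 and 129.6 CPM in vehicle, 119, 114 and 132 CPM in spironolactone and 111, 88.1 and 83.7 CPM in prednisolone libraries, and fell by 0.53 ± 0.11 under prednisolone (adjusted *P* = 0.0256). *Junb*, which encodes an AP-1 subunit and is itself an immediate early gene, was at 2469, 2584 and 2807 CPM in vehicle, 1911, 2242 and 2316 CPM in spironolactone and 1887, 1691 and 1342 CPM in prednisolone libraries. It fell by 0.68 ± 0.13 under prednisolone (adjusted *P* = 0.0169). The summed immediate early and dissociation list, which does not include *Junb*, was below vehicle in the prednisolone libraries, and its sums overlapped between the drugs. Even so, edgeR called 4 of its 11 genes higher with spironolactone than with prednisolone (*Jun*, *Atf3*, *Hspa1a* and *Hspa1b*), against 2.38 percent of all genes. It called 0 lower. The part of this list in these values was not tested. None of the 3 prednisolone calls held without prednisolone replicate 2 or without prednisolone replicate 3, and 1 (*Id3*) held without vehicle replicate 2, while *Junb* also lost its call without vehicle replicate 3. The log2 fold changes kept their direction: without prednisolone replicate 2 they were -0.93 for *Id3*, -0.70 for *Junb* and -0.48 for *Id2*, and without prednisolone replicate 3 they were -0.81, -0.55 and -0.45. Over all genes, 69 and 119 were called in these settings, against 293 with all libraries. The difference in *Id3* between the drugs lost its call without prednisolone replicate 2 or 3 or without spironolactone replicate 3 (adjusted *P* 0.0525 to 0.0835).

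*Fn1*, which encodes the matrix protein fibronectin, was at 3887, 3902 and 3165 CPM in vehicle, 2079, 3201 and 2189.5 CPM in spironolactone and 6065, 5002 and 5186 CPM in prednisolone libraries. The prednisolone libraries lay above all others, and 1 spironolactone library reached the vehicle range. *Fn1* was lower with spironolactone than with prednisolone by a log2 fold change of -1.12 ± 0.16 (edgeR adjusted *P* = 0.00254). Against vehicle it was -0.55 ± 0.16 under spironolactone (adjusted *P* = 0.217) and 0.57 ± 0.16 under prednisolone (adjusted *P* = 0.0922). Both values passed with DESeq2 (adjusted *P* = 0.0295 and 0.0116), with no filter on low counts and without spironolactone replicate 2 (0.047 and 0.0374). Neither passed in the 5 other settings or without any other library: the spironolactone value reached 0.654 without spironolactone replicate 3, and the prednisolone value 0.291 without prednisolone replicate 1. Summed monocyte markers were at 1423 to 1679 CPM with spironolactone and 1971 to 2662 CPM with prednisolone (1058 to 2448 CPM in vehicle), and resident-like macrophage markers at 734 to 839.6 CPM and 847 to 912 CPM (659.6 to 886 CPM in vehicle), both lists with every marker detected. Within them *Vcan*, *Chil3*, *Cd163*, *Lyve1* and *Timd4* were lower in every spironolactone than in any prednisolone library, as *Fn1* was, against 15.2 percent of all genes. *Ly6c2*, *Plac8* and *Folr2* were higher in every spironolactone library, against 15.1 percent. Between the drugs edgeR called *Lyve1* and *Cd163* lower with spironolactone (adjusted *P* = 0.0338 and 0.0448), against 2.79 percent of all genes. The part of these cells in the *Fn1* result was not tested. *Bhlhe40*, a basic helix-loop-helix repressor gene, was at 263, 255 and 221 CPM in vehicle, 160.2, 192 and 179 CPM in spironolactone and 243, 219.5 and 196 CPM in prednisolone libraries. Its log2 fold change under spironolactone was -0.48 ± 0.11 (adjusted *P* = 0.129), with every spironolactone library below every vehicle and prednisolone library; it passed with DESeq2 (0.00543) and with no filter on low counts (0.00244), but in none of the 5 other settings (up to 0.206) and in none of the 9 fits that left out 1 library (0.128 to 0.409).

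**Figure D5:**
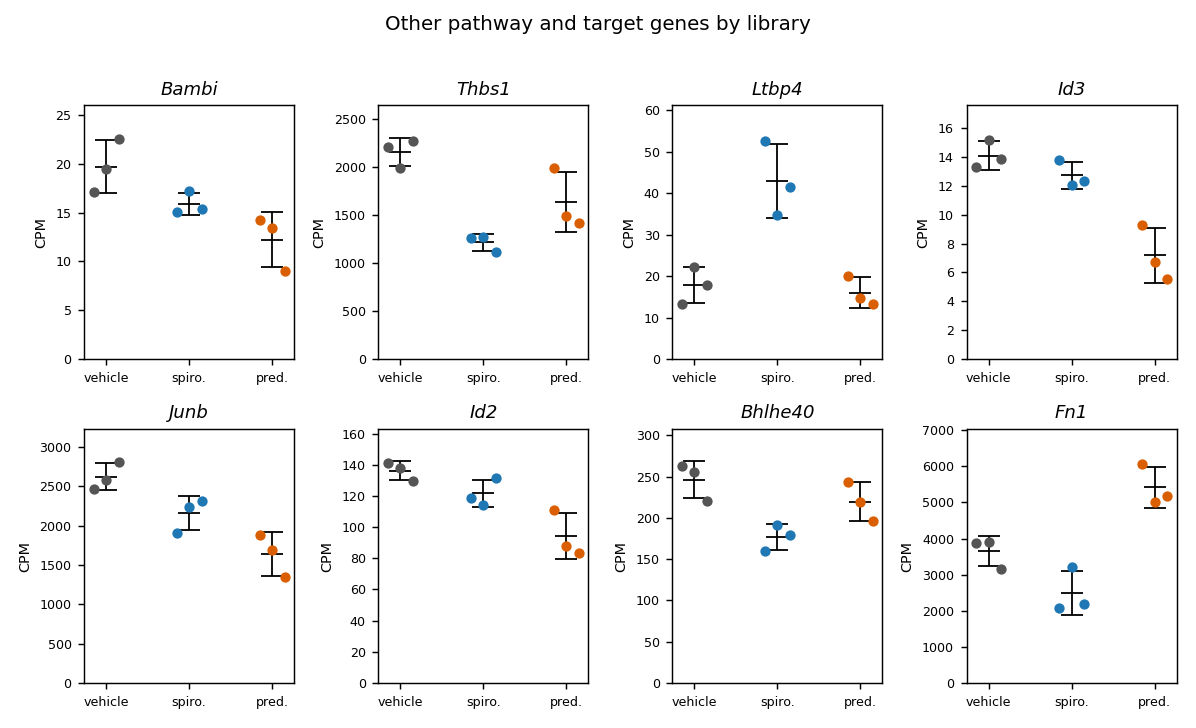
Level in CPM of the 8 further pathway and target genes named in the text, 1 panel per gene with its own linear axis from 0, with 1 point per library and bars for the group mean ± SD (n = 3). Prednisolone libraries are lowest for *Id3*, *Id2* and *Bambi*, and spironolactone libraries are highest for *Ltbp4*.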

How the data were processed

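The authors deposited 1 table of read counts per gene and library. Per the labels and the submitters' processing notes, reads (DNBseq) were aligned to mm39 with HISAT2 2.2.1 and counted with HTSeq 0.11.3. Lines naming no gene held 17.2 to 21.8 percent of reads and were left out. Deposited tables of the authors' DESeq2 1.32.0 comparisons (log2 fold changes and *P* values) were not used. Genes passing edgeR's filterByExpr (minimum count 10, minimum total 15) were tested on all 9 libraries with the edgeR 4.0.16 quasi-likelihood test in R 4.3.3 (TMM factors 0.98 to 1.03, two-sided, Benjamini-Hochberg over 16618 genes), after tests on simulated data. There, 100 genes were changed 1.5-fold and 100 were changed 2-fold under prednisolone. Against vehicle, edgeR recovered 36 and 67 of them with 11 false calls, and limma-voom 34 and 65 with 11. DESeq2 recovered 43 and 73 with 27 false calls. A gene that was not called may therefore still have changed by 1.5-fold. CPM used TMM; TPM used GENCODE exon lengths (40303 symbols, at least 91.0 percent of counts) without TMM. Likeness used log2 CPM with a prior count of 2. Members and lists were chosen with earlier results of these data known. Named genes were the members, every further gene called, up to 2 with the smallest *P* per list and comparison, and the 3 genes most like each of the 3 members with the smallest *P*. Alternatives were DESeq2 1.42.0, limma-voom (limma 3.58.1), RLE or library-total scaling, no filter, 2-group fits, a replicate block and leaving out each library. A check for 1 library deposited in duplicate found none. Each library was a pool of mice, so *P* values measure the spread between pools.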

Additional observations from a re-analysis of the deposited data

How the results depend on the processing

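The prednisolone call of *Tgif1* held under every setting. Among the 10 components under spironolactone, DESeq2 and the unfiltered fit each called 2 where edgeR called 0. For further pathway genes, the count of 0 under prednisolone became 1 with DESeq2, limma-voom or the replicate block and 4 unfiltered; 0 under spironolactone became 3 with DESeq2 or unfiltered and 1 with library totals, the replicate block or 2 groups; 1 between the drugs became 3 with DESeq2 or the replicate block, 4 unfiltered, and 2 with library totals or 2 groups. For target genes, 0 under spironolactone became 2 with DESeq2 and 4 unfiltered, and 2 between the drugs became 4 and 7. The causes were not tested. Leaving out 1 library gave 0 to 1 components under spironolactone. It gave 0 to 3, 0 to 2 and 1 to 4 further pathway genes in the 3 comparisons. For target genes it gave 0 to 4 under prednisolone and 0 to 1 under spironolactone. Between the drugs it gave 1 to 5 target genes, with the 5 found without vehicle replicate 1. Over all genes, called numbers ranged from 69 (without prednisolone replicate 2) to 1019 (unfiltered) under prednisolone, from 0 (limma-voom) to 528 (unfiltered) under spironolactone, and from 232 to 1940 between the drugs. Some estimates near 0 changed sign: *Smad2* under prednisolone to 0.0129 (library totals) and 0.00763 (unfiltered), and *Tgfbr2* under spironolactone to 0.0111 (limma-voom), 0.00274 (unfiltered) and 0.00854 (replicate block). With 1 library left out, the log2 fold changes that crossed 0 ranged as follows: *Tgfbr2* -0.133 to 0.111, *Smad2* -0.0569 to 0.0265, *Smad3* -0.21 to 0.0646, *Ski* -0.0405 to 0.169, *Ltbp4* -0.347 to 0.035 under prednisolone; *Tgfb1* -0.0331 to 0.121, *Tgfbr1* -0.14 to 0.108, *Tgfbr2* -0.0949 to 0.146 under spironolactone; *Tgfb1* -0.114 to 0.0433, *Tgfbr2* -0.0625 to 0.132, *Smad7* -0.0282 to 0.208 between the drugs. The labels do not say whether the replicate numbers pair the libraries. Correlations of same-numbered deviations were -0.04 to 0.15, and those of different-numbered deviations -0.17 to 0.04. The highest were between spironolactone and vehicle, at 0.15 for replicate 3 and 0.12 for replicate 1. A batch shared by number was therefore not excluded. The replicate block left the 1, 0 and 0 called components as they were, but moved the counts of further pathway genes given above. For genes with few counts, depth limits detection of small changes.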
